A study of Mus musculus with 12 samples.

Results

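The G2 and mitosis genes are a set of 47 genes, chosen by name from the 32286 genes counted, whose mRNAs are known to rise once a cell has copied its DNA and prepares to divide. In G2 phase Cdk1 binds the B-type cyclins Ccnb1 and Ccnb2, and this kinase acts with Plk1 and the Aurora kinases to condense the chromosomes, build the spindle and attach the chromosomes to it. The anaphase-promoting complex, activated by Cdc20 and supplied with ubiquitin by Ube2c, then destroys the cyclins, and the cell divides. In the sympathetic lineage, neuroblasts divide whereas mature ganglion neurons do not. All 47 genes were found, each under 1 identifier, on 17 chromosomes.

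The values come from droplet scRNA-seq of the superior mesenteric ganglion (SMG), the sympathetic ganglion from which tumors grow in Th-MYCN mice of this strain. All mice had the 129+Ter/SvJcl background, and the Th-MYCN+/- hemizygotes carried human MYCN (H-MYCN) under the rat tyrosine hydroxylase promoter, which drives it in catecholaminergic cells. There were 1 wild-type (WT) mouse and 10 Th-MYCN+/- mice, all aged 3 weeks, and 1 Th-MYCN+/- mouse aged 6 weeks that had been picked for a visible tumor. With 1 mouse in the WT and 6-week groups, no test between groups was made, and their 95% intervals cover counting error only. The WT library held 1147771 UMIs (unique molecular identifiers, each standing for 1 captured mRNA molecule), the 3-week Th-MYCN+/- libraries held 1444552 to 6388765, and the 6-week library held 4824039.

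After filtering, 11999 cells remained and were sorted into classes by marker genes, with the 47 genes left out of the clustering. The classes used most were neuroblast-like (5243 cells, in 3 clusters that each had at least 11 of 12 neuroblast markers raised), ganglion-like (2739 cells), Schwann-like (2895 cells), endothelial-like (529 cells) and macrophage-like (241 cells). The macrophage-like class also took in B cell-like cells, as a finer clustering (resolution 1.0) gave 192 macrophage-like and 49 B cell-like cells. H-MYCN had 0 UMIs in every class of the WT mouse, and it reached 98.2 to 525 CPM (UMIs of the gene in each 1000000 UMIs) in the neuroblast-like cells of the 10 3-week Th-MYCN+/- mice. The library of mouse 2 stood apart: 38.5% of its UMIs lay in cells, 1490 of its 1816 cells were ganglion-like and 214 were neuroblast-like. The WT mouse had 38 cells in the neuroblast-like clusters, and 2 of them, with a median of 31250 UMIs, held most of their 76171 UMIs. The sum over these 38 cells went against the name, with ganglion markers at 35893 CPM, Schwann markers at 7260 and neuroblast markers at 2862, against 41954, 1448.5 and 3638 in WT ganglion-like cells. In the neuroblast-like cells of the 3-week Th-MYCN+/- mice the ganglion markers had 2474 to 9502 CPM and the neuroblast markers 13246 to 20293. There were 93 cell barcodes that occurred in more than 1 library.

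Many genes of this set are known to be regulated over the cell cycle through 2 short promoter elements, the cell cycle genes homology region (CHR; TTTGAA or TTCGAA) and the CCAAT box. RefSeq promoters (build GRCm38.p6) were matched for 40 of the 47 genes, and the 250 bases before each start were searched on both strands. TTTGAA or TTCGAA stood in 15 of the 40 (37.5%), against 17.4% of 27025 promoters of equal length. CCAAT stood in 32 of the 40 (80%), against 34.5%. Within 100 bases of the start the shares were 25% against 6.29% for TTTGAA or TTCGAA and 75% against 19.6% for CCAAT. A match describes the sequence and is not a measured binding site. The promoters printed here belong to 3 of the genes with the highest level in their role group, those that held TTTGAA or TTCGAA. They run 5′ to 3′ along the gene from 250 to 11 bases before the start, with both motifs in capitals. TTCAAA and ATTGG are their reverse complements.
Ube2c (chr2:164769679-164769918, plus strand): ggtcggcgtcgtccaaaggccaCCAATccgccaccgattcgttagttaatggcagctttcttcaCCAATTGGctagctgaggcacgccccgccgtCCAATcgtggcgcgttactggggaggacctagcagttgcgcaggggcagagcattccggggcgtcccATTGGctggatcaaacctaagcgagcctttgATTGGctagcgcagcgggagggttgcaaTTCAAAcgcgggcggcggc
Cks1b (chr3:89418302-89418541, minus strand): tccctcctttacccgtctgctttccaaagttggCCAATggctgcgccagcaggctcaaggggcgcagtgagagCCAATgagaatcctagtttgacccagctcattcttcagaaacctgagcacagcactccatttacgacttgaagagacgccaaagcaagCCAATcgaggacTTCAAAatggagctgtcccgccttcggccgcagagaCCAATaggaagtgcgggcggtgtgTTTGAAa
Hmgb2 (chr8:57511593-57511832, plus strand): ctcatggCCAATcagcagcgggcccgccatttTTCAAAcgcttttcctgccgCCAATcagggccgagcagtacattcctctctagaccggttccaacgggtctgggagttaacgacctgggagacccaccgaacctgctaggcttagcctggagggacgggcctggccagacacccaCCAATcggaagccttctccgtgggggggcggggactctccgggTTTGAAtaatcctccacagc
In each of the 3, a CHR match lay near the RefSeq start and began 29 bases before it in Ube2c, 17 in Cks1b and 30 in Hmgb2. The Ensembl gene positions put these starts elsewhere, at 164769898 for Ube2c, 89418383 for Cks1b and 57511907 for Hmgb2. By those positions the matches named for Ube2c and Cks1b lie inside the gene. For 31 of the 40 genes the bases after the RefSeq start were in a transcript of the gene. Ube2c had 6 CCAAT matches in its 250 bases, and Cks1b and Hmgb2 had 4 each.

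The 47 genes were expressed mainly in the neuroblast-like cells of Th-MYCN+/- mice. Their summed level there was 7630 CPM in the lowest of the 10 3-week mice, 10078 in the median and 11069 in the highest, with a mean of 9959.8 ± 1125 (SD, n = 10). Mouse 2 had 9818, within the range of the others, and the mean was 9976 without it. The summed level was 290 ± 180 (SD, n = 10) in ganglion-like cells. It was 709.8 ± 494 (n = 10) in Schwann-like cells, 871 ± 782 (n = 10) in endothelial-like cells and 854 ± 1220 (n = 9) in macrophage-like cells. The highest value of any mouse in these 4 classes was 4097, so that none reached the lowest neuroblast-like value. This kit counts 3′ ends, so the CPM of a gene does not scale with the length of its transcript. Other differences in capture between genes were not measured, and levels of different genes are compared with that limit.

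**Figure D1:**
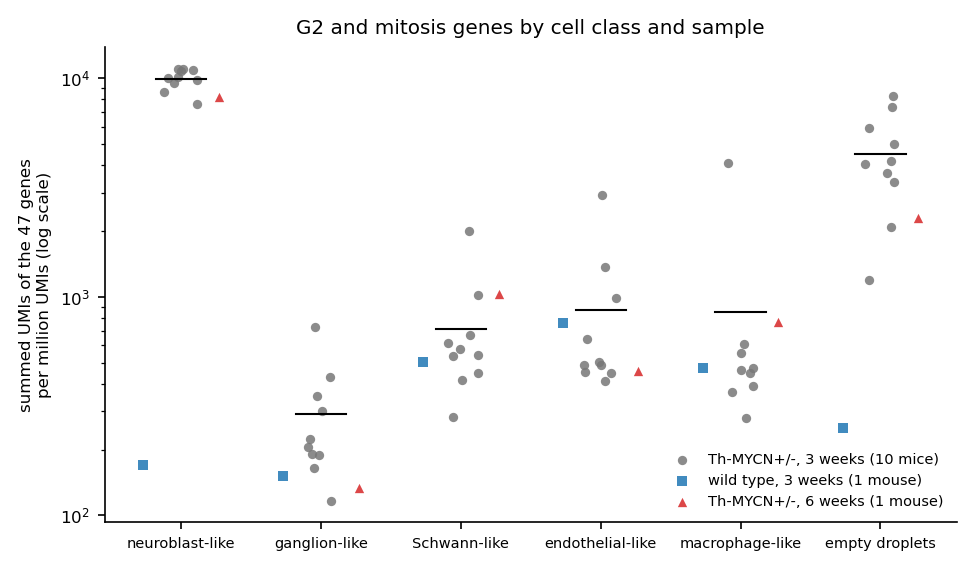
Summed CPM of the 47 genes (log scale) by cell class, and in empty droplets (barcodes with at most 100 UMIs). The WT point among the neuroblast-like cells rests on 38 cells, of which 2 hold most of the UMIs. Each point is 1 sample with at least 5 cells of the class; grey circles are the 10 3-week Th-MYCN+/- mice with their mean as a line, and the WT and 6-week mice have their own symbols. The neuroblast-like values of the 3-week Th-MYCN+/- mice lie between 7630 and 11069.

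In each low class 1 mouse stood above the rest. In ganglion-like cells the highest value was 726 in mouse 3, and the other 9 mice had 241 ± 99.2. In endothelial-like cells the highest value was 2919 in mouse 8, from 47 UMIs in 8 cells, and the other 9 mice had 644 ± 325. The sum of mouse 8 also held 27 UMIs of macrophage markers (1677 CPM, against 0 to 183 in 8 of the other mice and 981 in mouse 9), and their part in the value was not tested. In macrophage-like cells it was 4097 in mouse 10, from 154 UMIs in 15 cells, and the other 8 mice had 448 ± 104. Both of these sums held 0 UMIs of H-MYCN. In Schwann-like cells it was 2004 in mouse 6, from 236 UMIs in 112 cells, and the other 9 mice had 566 ± 204. Without thinning, 1 of these 112 cells had a UMI from 5 or more of the 47 genes, and 25.9% had a UMI from any of them. The sum of mouse 6 also held 17 UMIs of H-MYCN (144 CPM, against a mean of 305 ± 147 in neuroblast-like cells). The neuroblast markers in that sum were at 5578 CPM, against 1768 to 2524 in the other 9 mice, and the Schwann markers were lowest there (28409 CPM), and their part in the value was not tested.

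Free RNA of these genes was present in the droplets. Barcodes with at most 100 UMIs held 1195 to 8261 CPM of the set in the 3-week Th-MYCN+/- mice, 2282 in the 6-week mouse and 252 in the WT mouse. The share of free RNA in each class was estimated from the marker lists of other classes, and the lowest estimate of any list was taken. A list without UMIs thus set the share to 0, as in endothelial-like cells of mouse 1, so the share can be too low where few marker UMIs were expected. This lowest estimate averaged 2.00% ± 3.30 in neuroblast-like cells (11.3% in mouse 2), 2.11% ± 1.76 in ganglion-like and 4.76% ± 6.14 in Schwann-like cells. With it subtracted, the mean level was 242 in ganglion-like, 659 in Schwann-like and 854 in both endothelial-like and macrophage-like cells. As a share of the neuroblast-like level of the same mouse, ganglion-like cells held 2.88% ± 1.74 of the 47 genes and 1.16% ± 1.35 of H-MYCN. Schwann-like cells held 7.08% ± 4.51 of the 47 genes and 5.43% ± 10.4 of H-MYCN, and without mouse 6 these shares were 5.86% and 2.27%.

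Of all UMIs of the set in cells, 94.3% ± 9.65 (n = 10) lay in neuroblast-like cells of the 3-week Th-MYCN+/- mice and 95.1% in those of the 6-week mouse. The lowest share was 67.1% in mouse 2, where ganglion-like cells, the bulk of that library, held 31.5%. The WT mouse had 247 UMIs of the set in all. Of these, 48.2% lay in Schwann-like, 20.2% in endothelial-like, 17.0% in ganglion-like and 5.26% in the 38 cells of the neuroblast-like clusters.

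The 38 WT cells in the neuroblast-like clusters held 13 UMIs of the set, from 5 of the 47 genes. Their summed level was 171 CPM (95% Poisson interval 90.9 to 292). Given their markers and the 2 cells that carry the sum, no level of WT neuroblasts can be read from it. Hmgb2, Anp32e, Smc4, Tmpo and Cks1b gave the 13 UMIs, and the other 42 genes, Cdk1 and the cyclins among them, were at 0. WT ganglion-like cells had 152 CPM (109 to 205) and those of the 6-week mouse 134 (116 to 154), both inside the range of 117 to 726 of the 3-week Th-MYCN+/- mice.

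Within neuroblast-like cells, levels ranged widely between genes. Between mice the coefficient of variation was 11.3% for Hmgb2, the steadiest gene, and 49.9% for Cks2, the least steady (124 to 468 CPM). The 8 genes of chromatin and the nuclear envelope held 32.9% of the summed level (3276 ± 296 CPM, n = 10). The 6 genes of Cdk1, its cyclins and its partners held 18% (1793 ± 273), and the 3 genes of the ubiquitin pathway 17.3% (1720.4 ± 243). Spindle genes (11 genes) held 8.21% (817 ± 141), kinetochore genes (8) 7.97% (794 ± 149.98), the chromosomal passenger complex (3) 7.38% (735 ± 109), the other mitotic kinases (4) 7.22% (719 ± 147) and genes of cytokinesis (4) 1.06% (106 ± 20.6).

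**Figure D2:**
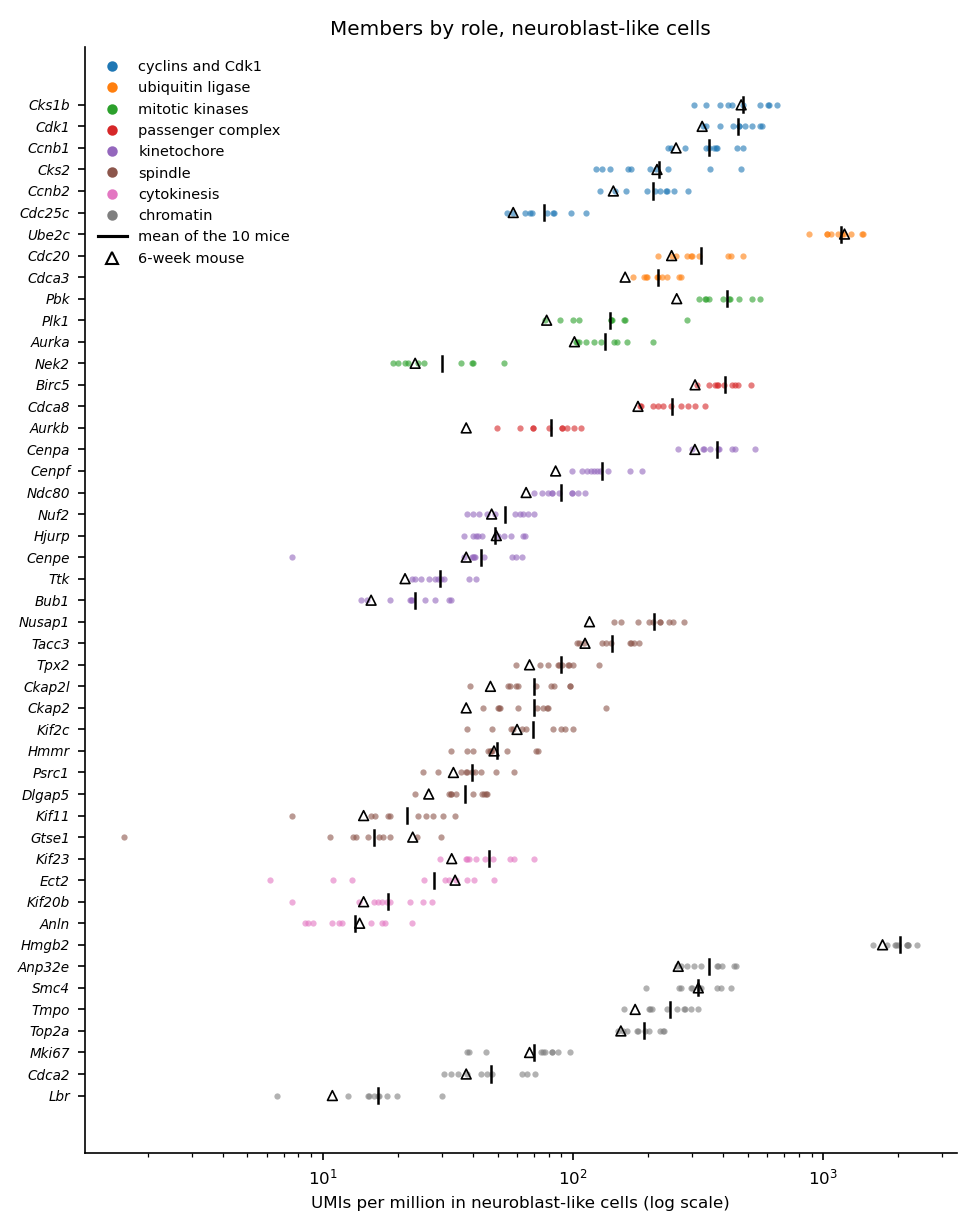
CPM (log scale) of each of the 47 genes in neuroblast-like cells, ordered by role. Each dot is 1 of the 10 3-week Th-MYCN+/- mice, the black line is their mean and the open triangle is the 6-week mouse. Hmgb2 (mean 2040.1) and Ube2c (mean 1175) stand above all other genes, and Anln (13.4) is lowest.

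The most abundant gene of each role is given in full, with the background of all genes first. With neuroblast-like set against ganglion-like cells from the same 10 mice (edgeR, adjusted p under 0.05), 36.4% of the 7885 genes tested were higher in neuroblast-like cells, with a median log2 difference of 0.09. Of the 47 genes, 43 passed the filter on low counts and all 43 were higher, with a median of 5.72 and a range of 2.30 to 6.94 apart from Dlgap5, which had 0 UMIs in ganglion-like cells. A gene can pass that filter through its high class alone, so the fit was also made without it. All 47 were then higher, against 22.9% of 19251 genes. Compared with Schwann-like cells, 38 genes passed the filter and all 38 were higher, with a median of 4.07, against 37.3% of 5641 genes and a median of 0.13. These comparisons share the neuroblast-like sums.

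Hmgb2, a chromatin protein that bends DNA, had 1584 CPM in the lowest mouse, 2088 in the median and 2384 in the highest, with a mean of 2040.1 ± 231 (n = 10). Its mean was 34.6 in ganglion-like and 131 in Schwann-like cells. No mouse overlapped between the classes, and the log2 difference was 6.09 ± 0.20 (SE; edgeR adjusted p = 1.6e-14) from ganglion-like cells and 3.74 ± 0.27 from Schwann-like cells. Ube2c, the ubiquitin-conjugating enzyme of the anaphase-promoting complex, had 883, 1169 and 1442, with a mean of 1175 ± 178 against 15.2 in ganglion-like cells (log2 difference 6.81 ± 0.32; edgeR adjusted p = 5.7e-13). Among the genes of the Cdk1 group the highest was Cks1b, a small subunit bound to Cdks, at 305, 456 and 657. Its mean of 479 ± 122 compared with 19.5 in ganglion-like cells (4.70 ± 0.25; edgeR adjusted p = 3.0e-12). Cdk1 itself had 333, 462 and 569, with a mean of 456 ± 83.3.

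Pbk, a mitotic kinase, had 318, 409.5 and 558 CPM in the lowest, median and highest mouse. Its log2 difference was 6.43 ± 0.35 from ganglion-like cells (edgeR adjusted p = 5.1e-12) and 5.26 ± 0.33 from Schwann-like cells. Birc5 (survivin), a subunit of the chromosomal passenger complex, had 313, 391 and 514 and a log2 difference of 5.65 ± 0.26 (edgeR adjusted p = 5.7e-13). Cenpa, the histone variant of centromeres, had 264, 367 and 535 and a log2 difference of 6.32 ± 0.36 (edgeR adjusted p = 7.1e-12). The ranges of these 3 genes overlapped in neuroblast-like cells. Nusap1, which binds spindle microtubules, had 146, 217 and 277 (5.74 ± 0.34; edgeR adjusted p = 1.4e-11). Kif23, a kinesin of the midzone needed to divide the cytoplasm, was the highest of its group at only 29.6, 42.9 and 69.7 (5.13 ± 0.39; edgeR adjusted p = 4.7e-10).

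Other members are given here by role. Among the cyclins and their partners, Ccnb1 had a mean of 351 ± 79.6 CPM in neuroblast-like cells and Ccnb2 209 ± 50.1. Cks2, the paralog of Cks1b, had 221 ± 110.3, and Cdc25c, the phosphatase that switches Cdk1 on, 76.9 ± 18.3. Of the Aurora kinases, Aurka, which acts at spindle poles, had 135 ± 33.5 and Aurkb, the kinase of the passenger complex, 81.6 ± 18.7. Plk1, which acts from mitotic entry to cytokinesis, had 141 ± 59.3, with 77.1 in the lowest mouse and 286 in the highest.

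Of the genes that build chromosomes for division, Smc4, a subunit of condensin, had 317 ± 68.3 CPM, Top2a, which untangles sister DNA, 192 ± 29.5, and Mki67, the coat protein used as a marker of proliferation, 69.9 ± 21.4. At the kinetochore, Cenpf had 131 ± 27.7, and Ndc80 and Nuf2, partners in the complex that grips microtubules, had 89.3 ± 13.7 and 53.3 ± 11.7. The checkpoint kinases Ttk (29.4 ± 6.03) and Bub1 (23.3 ± 6.34) were lower. Among spindle genes, Tacc3 had 143 ± 30.4 and Tpx2, which activates Aurka, 89.8 ± 17.98, whereas the kinesin Kif11, which pushes the spindle poles apart, had 21.8 ± 7.93. The genes of cytokinesis were the rarest as a group, with Ect2 at 27.9 ± 13.8 and Kif20b at 18.3 ± 5.66. Dlgap5, a spindle protein at 37.2 ± 7.34 in neuroblast-like cells, was the only one of the 47 with 0 UMIs in the ganglion-like cells of these 10 mice (of 8055760 UMIs), and against 3 counts over that total it was at least 99.9-fold higher.

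The 5 smallest differences from ganglion-like cells in the filtered fit were those of Lbr, Anp32e, Hjurp, Tmpo and Gtse1. Lbr, a receptor of the inner nuclear membrane that holds lamin and chromatin, differed least, by 2.30 ± 0.33 on the log2 scale (edgeR adjusted p = 4.0e-06), and had 16.7 ± 5.91 CPM in neuroblast-like and 17.6 ± 10.9 in Schwann-like cells. Anp32e, a histone chaperone that removes H2A.Z, had 349 ± 68.1 in neuroblast-like, 115 ± 65.9 in Schwann-like and 42.1 in ganglion-like cells. Tmpo, a lamina-associated protein, had 244 ± 49.8, 74.7 ± 30.6 and 16.3 in the same order. Hjurp, the chaperone that loads Cenpa, differed by 3.82 ± 0.36 and Gtse1, a microtubule-binding protein, by 4.13 ± 0.52. Anln, an actin-binding protein of the cleavage furrow, is added here after its values were seen. It was the only one of the 47 called lower in neuroblast-like than in Schwann-like cells, at 13.4 ± 4.72 against 30.4 ± 25.2 CPM. In Schwann-like cells it ran from 0 in mouse 2 to 91.9 in mouse 9, and in neuroblast-like cells from 8.49 to 22.7, so the ranges overlap. The log2 difference in the fit without a filter was -1.33 ± 0.29 (edgeR adjusted p = 1.3e-05). In that fit 45 of the 47 were higher (23.7% of all genes) and 1 was lower (18% of all genes).

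Related gene lists put these values in context. Of 36 S phase genes tested, 35 were higher in neuroblast-like than in ganglion-like cells, with a median log2 difference of 4.44, led by Dscc1 (6.80), Exo1 (6.70) and Rrm2 (5.89). Of 46 further mitosis genes outside the set, 40 were higher, led by Melk (7.76), Cdca5 (7.05) and Bub1b (7.03), and 1 was lower, Zwint (-1.57), a kinetochore gene that neurons also express. For all genes the shares were 36.4% higher and 31.5% lower. Of 20 regulators of the cell cycle, 16 were higher, led by Fbxo5 (5.99), an inhibitor of the anaphase-promoting complex, and Mybl2 (5.70), a transcription factor of G2 genes. Cdkn1a, which encodes the Cdk inhibitor p21, was lower by 0.65 ± 0.22 (edgeR adjusted p = 0.012).

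Against Schwann-like cells, 30 of 31 S phase genes, 31 of 36 further mitosis genes and 8 of 13 regulators were higher. The genes that were lower there were Ckap5 (-0.93) and Gas2l3 (-2.72), both of which bind microtubules, and the regulators E2f5 (-1.48) and Cdkn1a (-1.67). For all genes 37.3% were higher and 29.9% lower.

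The resident classes were then compared with one another. These comparisons share the ganglion-like sums. Between Schwann-like and ganglion-like cells, 2 of the 47 genes passed the filter, and both were higher in Schwann-like cells, against 31.1% of 3116 genes. Hmgb2 was higher by 2.32 ± 0.25 on the log2 scale (edgeR adjusted p = 2.1e-08) and Anp32e by 1.5 ± 0.21 (edgeR adjusted p = 1.0e-06). Without the filter 21 of the 47 were higher, against 17.3% of 17957 genes, with Anln (3.38 ± 0.41), Lbr (2.58 ± 0.46) and Tmpo (2.39 ± 0.29) among them. None of the 47 genes passed the filter between endothelial-like and ganglion-like cells, where 27.5% of 1881 genes were higher. Without the filter 9 of the 47 were higher, against 14.2% of 17672 genes, and these were Hmgb2, Cdk1, Ube2c, Birc5, Tmpo, Smc4, Dlgap5, Lbr and Cenpa. Few of the further mitosis genes outside the set were tested in the filtered fits, too few to read a direction for that list. In Schwann-like cells 0 of 8 were higher and 4 lower than in ganglion-like cells, where 1173 of 3116 genes were lower. In endothelial-like cells 0 of 6 were higher and 4 lower, where 871 of 1881 genes were lower. Of the S phase list, 2 of 4 and 0 of 1 were higher, and 0 lower.

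In Schwann-like cells the 8 chromatin genes and the other 39 were also summed apart, a division made after the values were seen. The 352 Schwann-like cells of the WT mouse had 427 CPM of the chromatin genes (95% Poisson interval 348 to 518). In the 9 3-week Th-MYCN+/- mice with more than 6 Schwann-like cells the level was 292 to 781, with a median of 333, and the WT mouse lay inside that range. Tmpo and Anp32e, at 32 UMIs each, and Hmgb2, at 21, gave most of the WT total. The other 39 genes had 76.0 CPM in the WT mouse (45.1 to 120), from 18 UMIs. In the same 9 mice they had 123 to 1223, with a median of 217, and in the 6-week mouse 640 (571 to 715). Mouse 2, with 6 Schwann-like cells, had 0 UMIs of these 39 genes (0 to 1041), below the WT value, so the 10 mice and the WT mouse overlap. With free RNA subtracted these values were 77.8 in WT, 119 to 1225 in the 9 mice and 641 in the 6-week mouse. Of the 39 genes, 32 had 0 UMIs in WT Schwann-like cells, Ube2c, Cdk1 and Birc5 among them. Cdc20 had 5 UMIs there (21.1 CPM, against a mean of 12.6 in the 10 mice), Anln 5, Nusap1 3 (12.7 against 10.6) and Ccnb1 2 (8.45 against 15.2). Of the 3 genes of the set with a mean of at least 50 CPM in this class, Tmpo lay above all 10 mice in WT (10.7% of 3148 genes did) and 0 lay below all 10 (2.26%).

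Because a summed level does not say how many cells express the genes together, each cell with at least 1000 UMIs was thinned to 1000, and cells with a UMI from 5 or more of the 47 genes were counted. In neuroblast-like cells of the 3-week Th-MYCN+/- mice the share was 47.1% in the lowest mouse and 68.8% in the highest, with a mean of 54.5% ± 6.26 (n = 10; 1631 of 3056 cells). In the 6-week mouse it was 48.2% (131 of 272 cells; 95% Clopper-Pearson interval 42.1 to 54.3). In ganglion-like cells, which should lack these genes, it was 0.833% ± 1.60 (6 of 1445 cells). It was 1.27% ± 1.83 in Schwann-like (8 of 1088 cells) and 3.60% ± 6.54 in endothelial-like cells (6 of 237 cells). The highest mouse held 1 such cell of 20 in ganglion-like (mouse 8), 1 of 19 in Schwann-like (mouse 1) and 1 of 5 in endothelial-like cells (mouse 8). Without it the means were 0.371% (n = 9), 0.768% (n = 8) and 1.55% (n = 8). Median depth before thinning was 4132 UMIs in neuroblast-like, 1756 in ganglion-like and 1487 in Schwann-like cells, and over cells of every depth, without thinning, the shares were 56.9%, 4.40% and 0.724%, which cover other cells than the thinned shares.

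**Figure D3:**
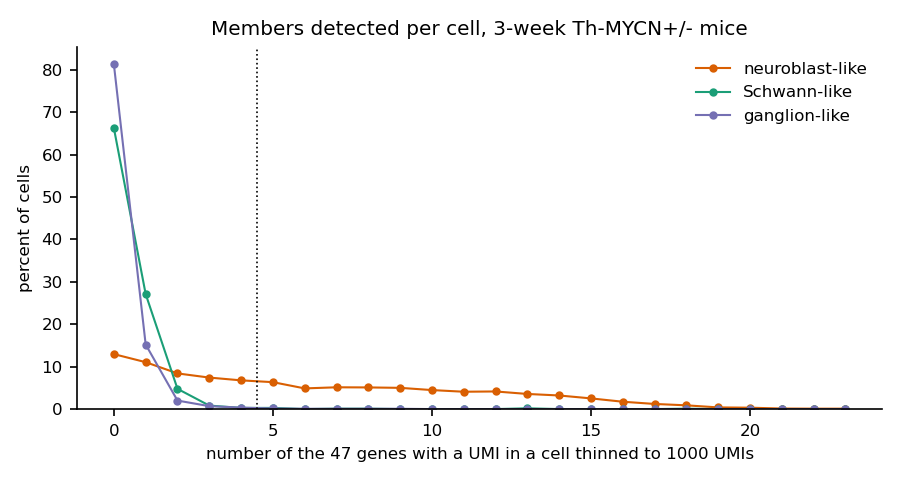
Percent of cells (vertical axis) by the number of the 47 genes with at least 1 UMI (horizontal axis), in cells thinned to 1000 UMIs from the 3-week Th-MYCN+/- mice. The dotted line marks the bound of 5 genes. Of neuroblast-like cells 12.96% have none of the genes, against 66.3% of Schwann-like and 81.3% of ganglion-like cells.

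Cells outside the neuroblast-like class with 5 or more of the genes were few but had up to 18 of them. The 8 Schwann-like cells of this kind in 3-week Th-MYCN+/- mice held 0 UMIs of H-MYCN after thinning, as did the 6 ganglion-like and 6 endothelial-like cells, whereas 424 of the 1631 neuroblast-like cells held one. In the 6-week mouse 4 of 219 Schwann-like cells were counted (1.83%; 0.4998 to 4.61), and 1 of the 4 held an H-MYCN UMI. In the WT mouse 0 of 71 Schwann-like cells were counted, which allows a share of up to 4.23%, and 0 of 40 ganglion-like cells, for a limit of 7.5%. The WT mouse had 2 neuroblast-like cells of that depth, too few for a share.

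Neuroblast-like cells differed widely in how many of the 47 genes were detected. Of the 3056 thinned cells, 12.96% had none of them, 19.5% had 1 or 2, 14.2% had 3 or 4, 26.5% had 5 to 9, 19.5% had 10 to 14 and 7.40% had 15 or more. UMIs of the S phase list rose and then fell along this order, from 1.22 per cell with none of the genes to 6.63 with 5 to 9 and 3.68 with 15 or more. The share of cells with an H-MYCN UMI was 24.2% among cells with none of the genes, 30.4% with 1 or 2, 24.9% with 3 or 4, 26.5% with 5 to 9, 26.3% with 10 to 14 and 23.5% with 15 or more. Cells with at least 3 S phase UMIs and at least 5 of the 47 genes were 38.7% of the total, those with S phase UMIs only 20.3%, those with G2 and mitosis genes only 14.6% and those with neither 26.3%.

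The neuroblast-like class was made of 3 clusters. The 47 genes and the S phase genes were left out of the clustering, but the further mitosis genes, such as Spc25, were not. The 47 genes also gave the G2 and M score that was regressed, so a difference between clusters is not independent of the clustering. The clusters differed in the level of the 47 genes. It was 13519 ± 2932 CPM (SD over 10 mice; 1556 cells) in the first, whose leading genes by fold were themselves cell cycle genes such as Rrm2, Cdk1 and Ccnb1, 7813 ± 2255 (2145 cells) in the second, whose cells were shallow, and 3755 ± 710 (1143 cells) in the third. In the same order H-MYCN had 289 ± 133, 210 ± 97.0 and 362 ± 234 CPM. In mouse 2 alone the 47 genes were lower in the first cluster (6696 CPM, 28 cells) than in the second (10761, 176 cells). In mouse 8 alone the second cluster (7886) lay below the empty droplets of the same library (8261), and the part of free RNA in this cluster was not tested. In the third cluster the level ranged from 2769 to 5250 between mice, above all values in ganglion-like cells of the same condition (117 to 726). It lay below the empty droplets of the same library in mice 1, 3, 6, 8, 9 and 10 and above them in the other mice. In mouse 8 it was 3691 against 8261, and in mouse 10 it was 3144 against 3349. The part of free RNA in the third cluster was not tested either. These are descriptions of clusters drawn from the same cells, without a test.

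The genes differed in how far they were concentrated in such cells. For each gene, cells were called by the other 46, and the share of its UMIs in cells with at least 5 of them was taken. Those cells were 48.0% to 53.4% of the total, so a gene spread evenly would show a like share. The median over the 47 genes was 89.8%. The 5 most concentrated were Cenpe (98.5%), a kinesin of the kinetochore, Plk1 (97.1%), Kif23 (96.79%), Hmmr (96.75%), a spindle protein, and Nuf2 (96.7%). In the same order they had 2, 10, 5, 5 and 5 UMIs in the remaining cells, and Psrc1 (96.4%) had 4. The order of these genes thus rests on few UMIs. Cdc20 (95.9%) and Ccnb1 (94.99%), both abundant, came a little lower. The least concentrated were Cks1b (68.1%), Anp32e (69.3%), Hjurp (71.8%), Lbr (72.0%) and Tmpo (74.0%), the other members lying at 75% or more. Of these 5, Anp32e, Hjurp, Lbr and Tmpo were also among the 5 with the smallest difference from ganglion-like cells.

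The abundant genes of the set differed in how they related to the S phase list. The correlation with the number of other G2 and mitosis genes detected, over the 3056 cells, was 0.58 for Ube2c, 0.54 for Hmgb2, 0.53 for Cdc20, 0.51 for Ccnb1 and 0.49 for Cdk1. With S phase UMIs it was -0.04 for Ube2c and Cdc20 and 0.02 for Ccnb1, but 0.30 for Hmgb2 and 0.20 for Cdk1. These are correlations across single cells that share their library and depth, without a test. Among genes outside the set, those most alike in the number of G2 and mitosis genes detected with them were Spc25 (r = 0.48), of the Ndc80 complex, H2afx (0.386), a histone variant, Arl6ip1 (0.382), Tubb4b (0.365), a tubulin, and Ccna2 (0.357), cyclin A2.

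**Figure D4:**
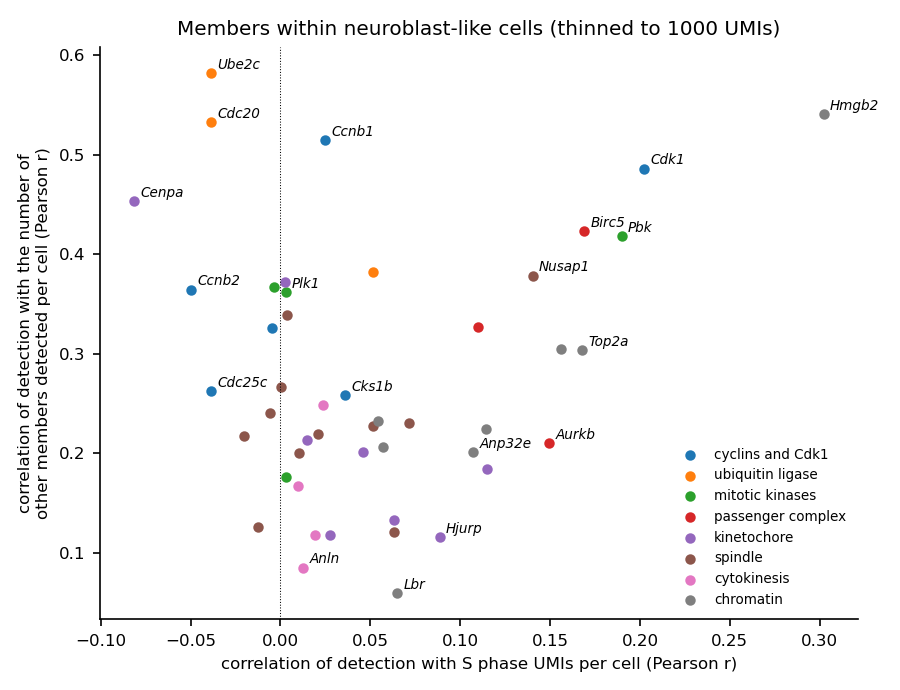
Each dot is 1 of the 47 genes, colored by role, in 3056 neuroblast-like cells of 3-week Th-MYCN+/- mice thinned to 1000 UMIs. The horizontal axis is the Pearson correlation of its detection with S phase UMIs per cell, and the vertical axis that with the number of other members detected; Ube2c, Cdc20, Ccnb1 and Cenpa lie at the upper left, and Hmgb2 (0.30 and 0.54) at the upper right.

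The 6-week mouse, which had a tumor, did not have higher levels of these genes in its neuroblast-like cells. Their summed level was 8169 CPM (95% Poisson interval 8041.5 to 8298), between the lowest mouse (7630) and the median (10078) of the 3-week Th-MYCN+/- mice. Of the 31 genes with a mean of at least 50 CPM, 11 lay below all 10 mice, against 9.23% of 3120 genes at that level, and 0 lay above all 10, against 4.29%. The 11 were Aurka, Aurkb, Birc5, Cdca3, Cdca8, Cdk1, Cenpf, Ckap2, Ndc80, Nusap1 and Pbk. They include the whole passenger group, Aurkb, Birc5 and Cdca8. Aurkb, its kinase, had 37.5 CPM against 49.6 to 108 in the 10 mice, Nusap1 had 117 against 146 to 277, and Pbk had 260.2 against 318 to 558. Ube2c (1219) and Cks1b (471) lay inside the range. The summed S phase list (3609.6 CPM, lowest of the 10 mice 3939.8) also lay below all 10. The further mitosis genes (7507) were level with the lowest of the 10 (7522 in mouse 2, from 996 UMIs), a gap inside counting error. As this is 1 mouse, age, tumor and library cannot be told apart.

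To ask whether the genes follow the transgene among neuroblast-like cells, cells of equal depth with and without an H-MYCN UMI were compared within each mouse. Mouse 2, with 1 cell that held an H-MYCN UMI, was left out of the paired values and the fit. The summed level was 9997 ± 1311 CPM (n = 9; 809 cells) with an H-MYCN UMI and 9720.8 ± 920 (n = 10; 2247 cells) without. The mean log2 ratio within a mouse was 0.02 ± 0.235 (SD, n = 9; 95% interval -0.16 to 0.20), and it was above 0 in 4 of 9 mice. Of the 47 genes 27 passed the filter and 0 were higher with an H-MYCN UMI (edgeR), as were 0% of 2276 genes, with 0 of the 27 at an unadjusted p under 0.05 and 0 called by DESeq2. The log2 differences of these 27 ran from -0.33 (Cenpf) to 0.23 (Plk1), with a median of -0.04 and a median over all genes of 0.01. In cells thinned to 2000 UMIs, 34 of the set were tested, with a median of -0.12, and 0 were called higher or lower. Of these, 6 had an unadjusted edgeR p under 0.05 in either direction, as did 278 of 3424 genes. Without the filter 0 of the 47 were higher, against 0.0529% of 15125 genes, and 5 of the 47 (Hmgb2, Nusap1, Cenpf, Tacc3 and Cdc20) were lower at an unadjusted p under 0.05, where 748 of the 15125 genes passed that p in either direction. In that fit the 47 genes ran from -0.75 to 0.31, with a median of -0.13, and the median of all genes was itself -0.18. The ganglion markers were at 2699 ± 430 CPM with an H-MYCN UMI and 3767 ± 1083 without. A cell without a UMI of H-MYCN may still express it, since detection is low at this depth.

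**Figure D5:**
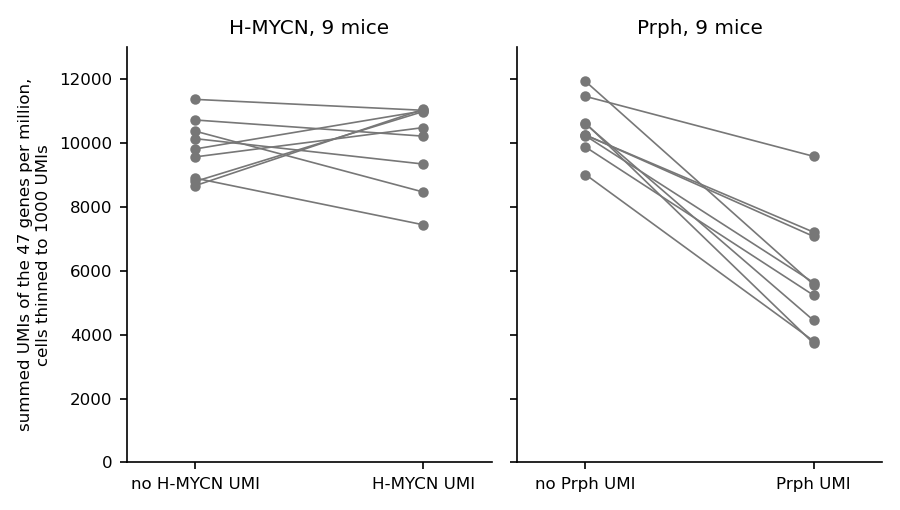
Summed CPM of the 47 genes in neuroblast-like cells thinned to 1000 UMIs, without and with a UMI of H-MYCN (left) or of Prph (right). Each line joins the values of 1 of 9 3-week Th-MYCN+/- mice with at least 5 cells on each side. The lines for Prph fall in 9 of 9 mice, and those for H-MYCN go either way.

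The same comparison was made for Prph (peripherin), an intermediate filament gene of differentiating sympathetic neurons. The study picked Prph from these same data to mark its uncommitted cells, with Ube2c, a member of the set, to mark its malignant neuroblasts. Prph also had a negative correlation with the number of the 47 genes detected per cell (r = -0.185). The direction of the result is therefore not independent of how the gene was chosen. Mouse 2 was again left out of the paired values and the fit, as it had 4 cells with a Prph UMI. Cells without a Prph UMI had 10494 ± 806 CPM (n = 10; 2634 cells) and cells with one had 5806 ± 1885 (n = 9; 422 cells). The mean log2 ratio was 0.91 ± 0.412 (SD, n = 9; 95% interval 0.593 to 1.23), and it was above 0 in 9 of 9 mice. Of 21 genes that passed the filter, 17 were higher without a Prph UMI, against 6.28% of 1751 genes (edgeR). The largest differences were those of Aurka (1.37 ± 0.30; edgeR adjusted p = 0.0011), a spindle pole kinase, Cdc20 (1.33 ± 0.20; edgeR adjusted p = 6.1e-06) and Ccnb2 (1.2). The 4 genes that missed the threshold were Tmpo (0.38), Cenpf (0.81), Cdca8 (0.15) and Cenpa (0.42). Without the filter 30 of the 47 were higher, against 3.75% of 15125 genes. In that fit the median log2 difference of the 47 was 1.22, but that of all genes was itself 0.39, with 567 higher and 114 lower. With the filter the medians were 0.84 and 0.01. Cells with a Prph UMI also had higher levels of the other 14 ganglion markers, 6752 ± 2713 CPM against 2597 ± 541 without, and 513 ± 315 against 285 ± 197 of the Schwann markers, and their part in the result was not tested. With the highest 5% of Scrublet doublet scores in each library removed, 16 genes were higher. The count fell to 8 of 17 tested in cells of 1000 to 5000 UMIs, where 26 of 1191 genes were higher, and to 6 of 12 tested at 500 UMIs, where 46 of 715 genes were higher. Of the S phase list 4 of 18 genes were higher and of the further mitosis genes 7 of 14, with Zwint lower (-0.60), against 8.74% of all genes lower.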

How the data were processed

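The deposited values were UMI counts per gene and barcode, which the authors made with Cell Ranger (3.0.2 in the file headers) against mm10 with the H-MYCN sequence added. The unfiltered barcodes were used. Cells were called against the empty droplets at an FDR of 0.01 (16188 barcodes), and those with under 200 genes (4071) or over 10% mitochondrial UMIs were removed. Clustering used Seurat 5.3.0 and sctransform 0.4.2 with 30 components at a resolution of 0.5, regressing the cycle scores as in the study's methods and leaving out the 47 genes, the S phase genes and H-MYCN. The cycle scores were computed from the 47 genes and the S phase genes. Clusters were named from fixed markers by a rule set after the clusters were seen, so names are rebuilt and may differ from the study's. Scrublet called 62 cells (0.517%), which were kept.

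Counts were summed per mouse and class (at least 5 cells) and tested with edgeR 4.0.16 (quasi-likelihood, TMM, filterByExpr, mouse as a block, Benjamini-Hochberg over all genes tested, threshold 0.05). The 3-week Th-MYCN+/- mice are separate animals, and both sums of a comparison come from the same mouse, which is where the pairing comes from. Levels are CPM, with exact Poisson intervals for a single mouse, and shares have exact Clopper-Pearson intervals, all for counting error only. The share that a count of 0 allows is 3 counts. The test was tried on simulated data.

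The 47 genes, their roles, the marker and gene lists and the tests were chosen with earlier results of these data known. The rule for genes given in full was the highest level in each of 8 roles and the 5 smallest differences between neuroblast-like and ganglion-like cells, and of each list the 3 largest changes in each direction. Alternatives were DESeq2 1.42.0, other filters, depths, clusterings and doublet removal, subtraction of free RNA, no block, and each mouse left out.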

Additional observations from a re-analysis of the deposited data

Results flagged for a closer look

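Among 36 sets of values, each over the 3-week Th-MYCN+/- mice of 1 class, 12 held a mouse whose gap to the next was above Dixon's 95% critical value. Chance flags about 1 in 20 sets, and the sets are not independent. The causes were not tested.

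In neuroblast-like cells, mouse 6 had the highest share of cells with 5 or more of the 47 genes, 68.8%, with the next mouse at 58.3%. In ganglion-like cells, mouse 3 had a summed level of 726 CPM, with the next at 429, and mouse 8 a share of 5.0%, with the next at 1.96%, each from 1 cell (1 of 20 and 1 of 51).

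Mouse 6 stood apart in Schwann-like cells in 3 values. Its summed level was 2004 CPM (next 1016), that of the 8 chromatin genes 781 (next 462) and that of the other 39 genes 1223 (next 554). The same cells held 17 UMIs of H-MYCN.

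In endothelial-like cells, mouse 8 had a summed level of 2919 CPM (next 1370) and a share of 20% (1 of 5 cells; next 5.41%). In macrophage-like cells, mouse 10 had 4097 CPM (next 610) and a share of 25% (2 of 8 cells; next 0%). Both rest on few cells.

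In mouse 2, neuroblast-like cells held 67.1% of the UMIs of the set (next 95.3%) and ganglion-like cells 31.5% (next 2.17%), in a library where most cells were ganglion-like.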

How the results depend on the processing

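The summed level in neuroblast-like cells stayed between 9721 and 10600 CPM under every alternative run. The share of neuroblast-like cells with 5 or more genes depends on its own construction, and was 68.4% for 3 or more genes, 27.03% for 10 or more and 36.1% when cells were thinned to 500 UMIs. Against ganglion-like cells 34 to 47 genes of the set were higher, and against Schwann-like cells 32 to 45, as the number that passed the filter moved. Between Schwann-like and ganglion-like cells, 1 was higher with barcodes of at least 500 UMIs, 1 with stricter limits on cells and 1 with free RNA subtracted (1 tested in each), and 21 of 47 without the filter on low counts. Between endothelial-like and ganglion-like cells 9 were higher without the filter. Without a Prph UMI, 6 were higher at 500 UMIs (12 tested), 8 in cells of 1000 to 5000 UMIs (17 tested) and 30 without the filter. Leaving out each mouse gave 40 to 45 against ganglion-like cells, 36 to 40 against Schwann-like cells, 2 to 3 between Schwann-like and ganglion-like cells, 0 for the endothelial-like and H-MYCN comparisons and 14 to 18 for Prph. Without the mouse as a block the counts were 43, 38, 2, 0, 0 and 14, and the block changed no other call by over 1.5 times. DESeq2 gave 43, 38, 2, 0, 0 and 15. Of 1376 values of named genes under alternatives, 1334 kept their direction and side of the threshold, 38 lost the threshold, 4 gained it and 0 turned. Depth limits the WT and 6-week values, which rest on 1 mouse each, and the classes with few cells.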
